A study of Mus musculus with 6 samples.

Results

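The genes described here encode the machinery that makes microRNAs and loads them into silencing complexes: Drosha and Dgcr8, the export factor gene Xpo5, Dicer1 with its cofactor genes Tarbp2 and Prkra, and the Argonaute genes Eif2c1, Eif2c2, Eif2c3 and Eif2c4, now named Ago1 to Ago4. They were taken by symbol from the deposited table, and all 10 were found among its 22731 gene symbols. The study measured mouse retina by RNA sequencing of poly(A) RNA. It compared 3 libraries of conditional knockouts (cKO, genotype Dicerfl/fl, iCre75+) with 3 libraries of control littermates (Dicerfl/fl, iCre75-). Both groups carried the floxed Dicer1 alleles, had a mixed C57BL/6J and SJL background and were 4 weeks old, and their tissue was taken between 8 and 10 in the morning. Each library was made from the RNA of 4 pooled mice. The series' title describes the knockout as specific to rod photoreceptors, and iCre75 is a transgene known to express Cre in rods. Each library holds all cells of the retina, and Dicer1 was not measured by cell type. The exon that is floxed is not given in the sources used here.

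MicroRNAs are cut from long transcripts in steps. In the nucleus the microprocessor, made of the ribonuclease Drosha and the RNA-binding protein DGCR8, releases a hairpin, which exportin-5 (Xpo5) carries to the cytoplasm. There Dicer, helped by the double-stranded RNA-binding proteins TRBP (Tarbp2) and PACT (Prkra), trims the hairpin to a short duplex, and an Argonaute protein keeps a single strand as its guide. Loss of Dicer therefore stops the supply of most new microRNAs, which in the retina include the abundant miR-183, miR-96 and miR-182 of photoreceptors. The machinery is itself under feedback: the microprocessor cuts a hairpin within the Dgcr8 transcript, and Dicer1 mRNA is a known target of miR-103 and miR-107.

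Sequences that bear on that feedback are shown first, as features that the choice of the genes did not use and that some of them hold. Matches to the seed (bases 2 to 8) of 7 microRNA families known from retina or from Dicer1 feedback were searched on the sense strand of each gene's longest annotated 3′ UTR (GENCODE M21, GRCm38). The match to miR-103 and miR-107, ATGCTGC, was found in 7 of the 10 genes: Dicer1, Dgcr8, Tarbp2 and the 4 Argonaute genes. As that family was searched because it is known to target Dicer1, its match in Dicer1 was not an independent find. A further family was planned but not searched, as no sequence was found under the name used. The mature microRNA (RefSeq, GRCm38.p6) is printed with its seed in capitals, and the matches of the 5 genes that hold a single match are printed with the 7 matching bases in capitals. They lie at chr12:104690169-104690191 (Dicer1), chr16:18254044-18254066 (Dgcr8), chr4:126438740-126438762 (Eif2c1), chr4:126341738-126341760 (Eif2c3) and chr4:126492434-126492456 (Eif2c4), all on the minus strand.
miR-103: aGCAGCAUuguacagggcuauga
Dicer1: ctgatgcttcatgtaATGCTGCa
Dgcr8: cttatatgtacagtcATGCTGCa
Eif2c1: cttcccgcaacggtaATGCTGCa
Eif2c3: gggaattaaaaccagATGCTGCt
Eif2c4: aaacatgcccattttATGCTGCt

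Such a match is a description of the letters, not evidence of a working site, and its frequency follows UTR length. The 3′ UTR of Dicer1, of 3851 bases, is longer than that of 89.4% of the tested genes for which a 3′ UTR was found, and 31.6% of tested genes with a 3′ UTR within 10% of its length hold the same match. For the 11064 bases of Eif2c2 and the 12742 bases of Eif2c3 these shares of like-sized UTRs were 65.5% and 87.5%, so a match there is common. Tarbp2, with 2 matches in 1221 bases, had a share of 10.3%. The like-sized shares were 13.3% for Dgcr8, 31.3% for Eif2c1 and 32.2% for Eif2c4. The whole gene models recovered from the RPKM values, 8031 bases for Eif2c2 and 7635 for Eif2c3, were shorter than the 3′ UTRs searched. Part of those UTRs therefore lay outside the sequence that was counted. The gene model of Tarbp2, at 1736 bases, was shorter than its longest annotated transcript of 2732 bases. Whether its searched UTR was counted in full was not tested. Drosha (169 bases), Prkra (513 bases) and Xpo5 (1327 bases) held no match to any of the 7 families. Over all tested genes with a 3′ UTR, 15.4% held the miR-103 and miR-107 match. The match to miR-204 and miR-211 (AAAGGGA) was in 5 of the 10 genes, Dicer1, Dgcr8, Eif2c1, Eif2c3 and Eif2c4, and in 17.5% of all 3′ UTRs. In like-sized UTRs its share was 34.8% for Dicer1, 15.9% for Dgcr8, 42.1% for Eif2c1, 93.8% for Eif2c3 and 34.7% for Eif2c4. Matches to let-7 (CTACCTC) were present in Tarbp2, Eif2c2 and Eif2c3, with like-sized shares of 10.1%, 51.7% and 62.5%. Those to miR-182 (TTGCCAA) were in Eif2c1, Eif2c2 and Eif2c3, with like-sized shares of 33.2%, 93.1% and 93.8%. That to miR-9 (ACCAAAG) was in Dicer1, with a like-sized share of 31.3%. The match to miR-183 (GTGCCAT) was in Tarbp2, Eif2c1 and Eif2c2, with 5 in Eif2c2 and like-sized shares of 10.6%, 25.7% and 75.9%. None of the 10 held the match to miR-96 (GTGCCAA).

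A hairpin inside Dgcr8 is that of miR-1306, which lies wholly within an annotated Dgcr8 exon at chr16:18284239-18284317 on the minus strand. A second annotated microRNA gene on the same strand, Gm24572, shares 88 bases with Dgcr8 exons. The mature arms of miR-1306 are shown with bases 2 to 8 in capitals, as the part of the Dgcr8 message from which this microRNA is made. The table lists Mir1306 as a row of its own, at 0 in all 6 libraries. Reads of that stretch also belong to the Dgcr8 exon, so this 0 is not a measure of how much hairpin was made.
miR-1306-5p: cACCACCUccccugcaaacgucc
miR-1306-3p: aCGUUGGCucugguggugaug

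Levels are given as the deposited RPKM, that is, reads divided by gene length in kilobases and by the depth of the library. Reads worked back from the steps between RPKM values gave between 12336426 (cKO replicate 4) and 32934561 (control replicate 3) reads in genes per library, and the 10 genes rested on between 174 and 3366 reads each per library. As a check of the tissue, the rod transcription factor gene Nrl was at 759.5 to 997.5 RPKM and the cone pigment gene Opn1sw at 206 to 282 RPKM. The lens gene Cryaa varied from 79.9 to 1488 RPKM without following genotype. The haemoglobin genes Hbb-b1 and Hba-a1 were at 0 in every library. The vessel genes Cdh5 and Pecam1 were at 2.65 to 2.99 and 3.64 to 4.33 RPKM. The source of the haemoglobin 0 was not tested, so it is not a measure of blood in the tissue. In a whole retina, fewer cells of a type and less RNA per cell cannot be told apart.

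No gene of the machinery passed an adjusted p of 0.05 between cKO and control retinas in limma, the test used across all genes. The 10 log2 fold changes (cKO minus control, on log2(RPKM + 0.5)) lay between −0.31 and 0.10, with 7 below 0 and 3 above and a median of −0.026, against a median of −0.0050 over the 12599 genes tested. All 10 genes passed the filter of a mean of at least 1 RPKM. The limma test called 0.00794% of all tested genes at that threshold, which is 1 gene, Prm1, not one of the 10. At an unadjusted limma p under 0.05 it called 0 of the 10 in either direction, where 3.06% of all genes were lower and 2.65% higher. By voom on the recovered reads, 0 of the 10 passed an adjusted p of 0.05. The 3 cKO values lay wholly below the 3 control values for 1 of the 10 genes, Dicer1, against 5.78% of all genes, and wholly above them for 0 of the 10, against 5.91%.

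**Figure D1:**
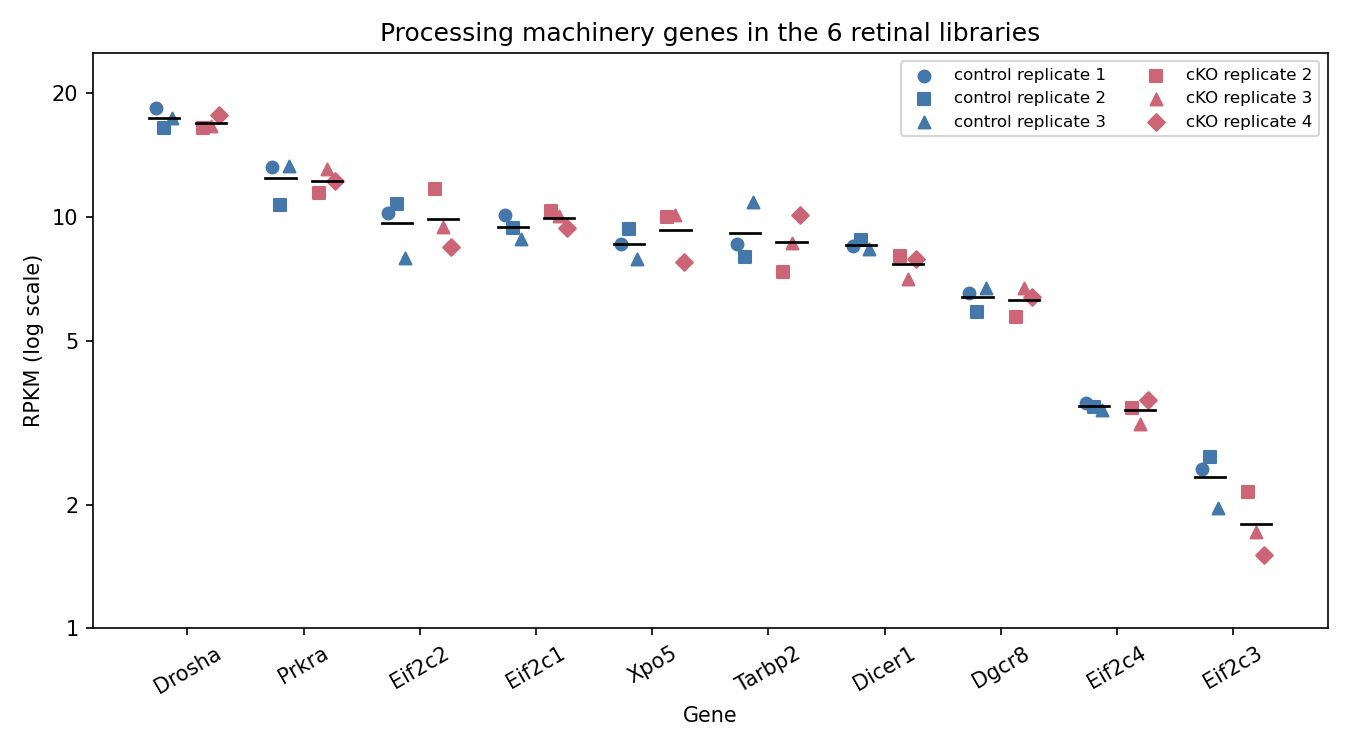
RPKM (log axis) of the 10 machinery genes, ordered by their mean, in the 3 control (blue) and 3 cKO (red) libraries. Points are libraries and black lines are group means. Groups overlap for every gene except Dicer1, whose 3 cKO points lie below its 3 control points.

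The microprocessor was present at uneven message levels in both groups, and neither subunit differed beyond the spread between libraries. Drosha, the catalytic subunit (chromosome 15, 12824815 to 12935291, plus strand), was the most abundant of the 10 messages per length. It was at 18.3, 16.5 and 17.4 RPKM in control replicates 1, 2 and 3 and at 16.5, 16.6 and 17.7 RPKM in cKO replicates 2, 3 and 4. The groups overlapped, with means of 17.4 ± 0.947 and 16.9 ± 0.676 RPKM (SD, n = 3 each), a log2 fold change of −0.039 and a 95% interval of −0.22 to 0.15. Dgcr8, which recognises the primary transcript (chromosome 16, 18253948 to 18289246, minus strand), was at 6.54, 5.87 and 6.73 RPKM in controls and 5.71, 6.71 and 6.40 RPKM in cKO. These ranges overlapped almost wholly (log2 fold change −0.023, interval −0.23 to 0.19). The reads carry no strand, and 10.7% of Dgcr8's annotated exon bases also belong to Trmt2a on the opposite strand, which was at 13.5 to 17.3 RPKM, so reads of that stretch cannot be assigned to either gene with certainty.

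Per length, Drosha outnumbered Dgcr8 in every library. The log2 ratio of their RPKM was 1.45 ± 0.068 in controls and 1.43 ± 0.115 in cKO (SD, n = 3 each), with p = 0.8 by exact permutation (two-sided, as throughout). Xpo5, which exports the hairpins in complex with Ran-GTP (chromosome 17, 46202782 to 46243598, plus strand), was at 8.57, 9.35 and 7.92 RPKM in controls and 9.97, 10.1 and 7.79 RPKM in cKO. Its log2 fold change was 0.098 with an interval of −0.17 to 0.37, and cKO replicate 4 was the lowest of all 6 libraries. The value rested on single libraries, at 0.21 without cKO replicate 4 and 0.035 without cKO replicate 3.

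Dicer1, the gene targeted in the knockouts (chromosome 12, 104687742 to 104751952, minus strand), was lower in every cKO library than in any control library, by a small margin. Control replicates 1, 2 and 3 were at 8.48, 8.77 and 8.33 RPKM, and cKO replicates 2, 3 and 4 at 8.02, 7.06 and 7.90 RPKM. An exact permutation test (two-sided) gave p = 0.1, which is the smallest that 3 against 3 libraries can give. The cKO mean was 89.9% of the control mean, and the log2 fold change of −0.15 had a 95% interval of −0.33 to 0.037 (limma adjusted p = 0.931). The gap between the groups depended on how libraries were scaled: when each library was divided by its median ratio to the gene-wise geometric mean, cKO replicate 2 came to 8.29 RPKM and control replicate 3 to 8.07 RPKM, so that 0 of the 10 genes had separate groups, although the fold change stayed at −0.14. With each library's trend with gene length (given below) removed, the groups of Dicer1 were still separate. Without cKO replicate 3 the fold change of Dicer1 was −0.092, a move of over 1.5 times. The value sums all exons of a gene model of 9851 bases, which equals an annotated transcript, over all retinal cells, so it does not measure the deleted exon in rods.

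The RNA-binding partners of Dicer did not differ between groups beyond their spread. Tarbp2, encoding TRBP (chromosome 15, 102518192 to 102523676, plus strand), was at 8.58, 7.96 and 10.9 RPKM in controls and 7.35, 8.63 and 10.1 RPKM in cKO. Its libraries spread widely in both groups, and the interval around its log2 fold change of −0.066 ran from −0.40 to 0.27. Prkra, encoding PACT, which is also an activator of the kinase PKR (chromosome 2, 76629898 to 76648015, minus strand), was at 13.2, 10.7 and 13.3 RPKM in controls and 11.4, 13.1 and 12.3 RPKM in cKO. Its fold change of −0.013 was the nearest to 0 of the 10, with an interval of −0.26 to 0.23.

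Dicer1 was also set against its partners within each library, which removes differences in depth. It does not remove the libraries' trend with gene length given below, and the gene models were 9851 bases for Dicer1, 1736 for Tarbp2 and 1554 for Prkra. The log2 ratio of Dicer1 to Tarbp2 was −0.088 ± 0.268 in controls and −0.17 ± 0.262 in cKO, and that to Prkra −0.54 ± 0.215 and −0.68 ± 0.192 (SD, n = 3 each). Both ratios overlapped between groups, with exact permutation p-values of 0.9 and 0.6. Relative to Drosha the values were −1.03 ± 0.107 and −1.15 ± 0.098, and relative to the summed Argonaute messages −1.54 ± 0.118 and −1.70 ± 0.143, each with an exact permutation p of 0.3. The groups did not separate in any of these 4 ratios. The mean difference (cKO minus control) against Tarbp2, −0.086, turned to 0.0063 without cKO replicate 4 and to 0.028 without control replicate 2.

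**Figure D2:**
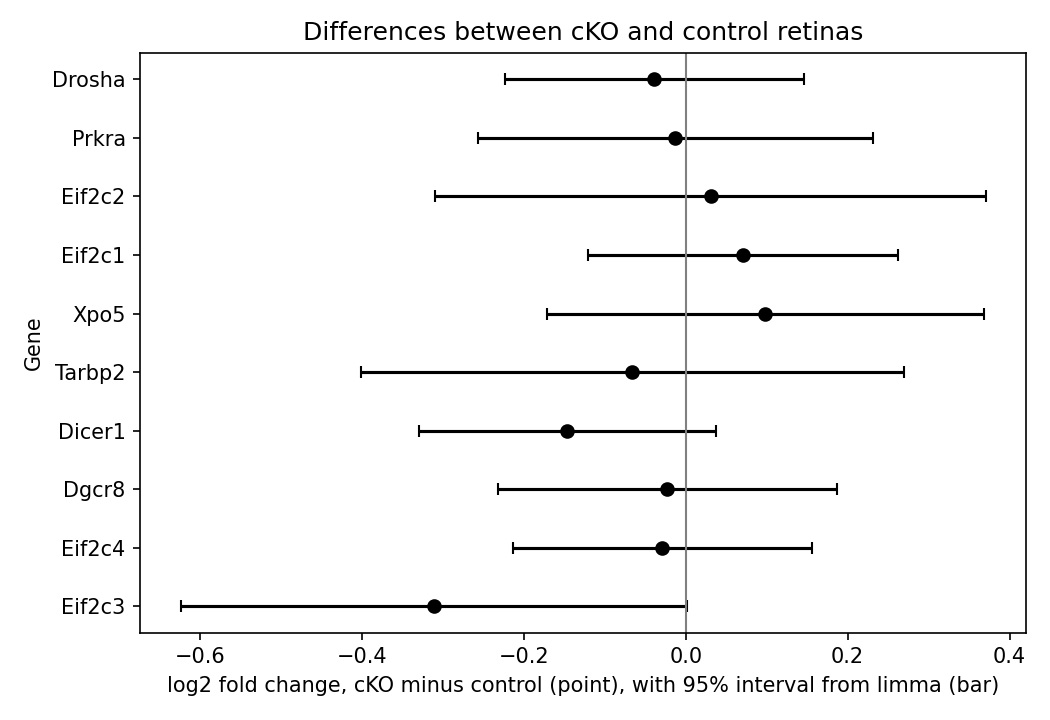
Log2 fold change of each gene, cKO minus control (points), with the 95% interval from limma (bars). Every interval includes 0, and those of Eif2c3 (−0.62 to 0.0016) and Dicer1 (−0.33 to 0.037) reach least far above it.

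The 4 Argonaute genes formed an abundant pair (Eif2c1 and Eif2c2) and a scarce pair (Eif2c4 and Eif2c3), and none passed the test. Mouse Argonautes share the same fold and all bind microRNAs, and AGO2 (Eif2c2) is the member known to slice perfectly paired targets. Eif2c1, Eif2c3 and Eif2c4 lie close together on the minus strand of chromosome 4 (126435012 to 126468583, 126331704 to 126429556 and 126489541 to 126533472), and Eif2c2 lies on chromosome 15 (73095844 to 73184935, minus strand). Eif2c1 was at 10.1, 9.40 and 8.82 RPKM in controls and 10.3, 10.1 and 9.39 RPKM in cKO. Eif2c2 was at 10.2, 10.7 and 7.94 RPKM in controls and 11.7, 9.42 and 8.46 RPKM in cKO. In both genes the groups overlapped, with log2 fold changes of 0.070 (interval −0.12 to 0.26) and 0.031 (−0.31 to 0.37). Of Eif2c2's annotated exon bases, 1.6% also belong to Chrac1 on the opposite strand, which was at 49.7 to 77.9 RPKM. As the reads carry no strand, those of that stretch cannot be assigned to either gene with certainty.

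Eif2c4 varied little between libraries. It was at 3.53, 3.46 and 3.39 RPKM in controls and 3.43, 3.14 and 3.59 RPKM in cKO, with a log2 fold change of −0.029 and an interval of −0.21 to 0.16. The spread between its libraries within groups (residual SD 0.062 on the log2 scale) was below that of all but 10.5% of tested genes, though it was 0.066 once each library's trend with gene length was removed, above Eif2c1 (0.058) and Drosha (0.061).

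Eif2c3, the scarcest Argonaute message, showed the largest difference of the 10 genes. It was at 2.44, 2.61 and 1.96 RPKM in control replicates 1, 2 and 3 (641, 778 and 606 reads) and at 2.15, 1.72 and 1.51 RPKM in cKO replicates 2, 3 and 4 (402, 470 and 174 reads). The cKO mean was 76.6% of the control mean, but control replicate 3 lay below cKO replicate 2, so the groups overlapped. The log2 fold change was −0.31 ± 0.14 (SE), with an interval of −0.62 to 0.0016, an unadjusted limma p of 0.0509 and a limma adjusted p of 0.874. Over the other settings tried it ran from −0.42 to −0.19, where the smallest came from the 4 libraries numbered 2 and 3 alone, and it did not pass in any.

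The summed Argonaute level was 24.9 ± 2.39 RPKM in controls and 25.0 ± 2.40 RPKM in cKO (SD, n = 3 each), and the share of each gene in it was compared within each library. Eif2c3 made up 9.27%, 9.98% and 8.86% of that sum in the controls and 7.77%, 7.05% and 6.56% in the cKO libraries. All 3 cKO shares were thus below all 3 control shares, with means of 7.13 ± 0.608% and 9.37 ± 0.566%. By exact permutation p was 0.1, the smallest this design allows, and 0.675 after Benjamini-Hochberg adjustment over the 9 shares and ratios computed. The difference of −2.24 percentage points stayed between −2.56 and −1.93 without each library in turn. A share shows unequal change among the 4 messages and does not depend on the depth of a library. Eif2c1 held 38.1 ± 2.03% and 39.9 ± 2.14%, Eif2c2 38.6 ± 2.54% and 39.3 ± 2.80%, and Eif2c4 14.0 ± 1.18% and 13.7 ± 1.74% in controls and cKO, and each of these overlapped between groups (exact permutation p between 0.3 and 0.8). Of the 9 quantities, the Eif2c3 share was the 1 whose groups did not overlap. Among the levels of all tested genes, 5.78% had cKO values wholly below the controls and 5.91% wholly above. The shares are parts of the same sum and several ratios share Dicer1, so the 9 quantities are not independent.

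**Figure D3:**
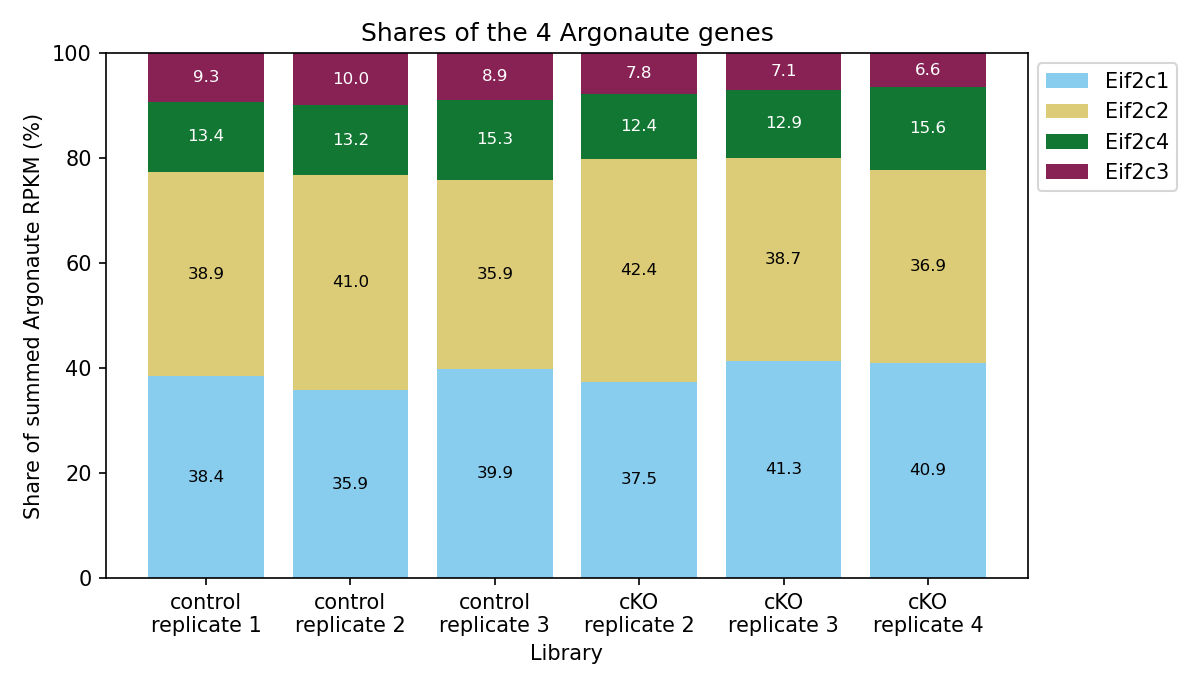
Share of each Argonaute gene in the summed RPKM of the 4 genes (percent, stacked to 100) in each library. Eif2c3, the top segment, is between 8.86% and 9.98% in the controls and between 6.56% and 7.77% in the cKO libraries.

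Across the 10 genes, mean levels over the 6 libraries ran from 17.2 RPKM (Drosha) to 2.06 RPKM (Eif2c3). The order below Drosha was Prkra (12.3), Eif2c2 (9.75), Eif2c1 (9.69), Xpo5 (8.95), Tarbp2 (8.92), Dicer1 (8.09), Dgcr8 (6.33), Eif2c4 (3.42) and Eif2c3. Drosha was above Prkra, Dicer1 above Dgcr8, Dgcr8 above Eif2c4 and Eif2c4 above Eif2c3 in 6 of 6 libraries. The middle of the order was not resolved: Eif2c2 exceeded Eif2c1 in 3 of 6 libraries, Xpo5 exceeded Tarbp2 in 3 of 6, and Tarbp2 exceeded Dicer1 in 4 of 6. Most of the machinery was thus of middling abundance in this tissue, with Drosha above 69.7% of tested genes, Dicer1 above 46% and Eif2c3 above 12%.

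Within each group the genes did not vary together, and the same contrast between libraries appeared in both groups. Drosha, Dgcr8, Tarbp2 and Prkra were each at their lowest in replicate 2, in the cKO group and in the controls alike. Xpo5, Eif2c1, Eif2c2 and Eif2c3 were each at their lowest in cKO replicate 4 and in control replicate 3. Eif2c2 and Eif2c3 were at their highest in cKO replicate 2 and control replicate 2. Eif2c2 lay 0.25 above its group mean on the log2 scale in cKO replicate 2 and 0.25 below it in control replicate 3, while Tarbp2 lay 0.22 below and 0.25 above in the same libraries.

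A contrast between the same libraries ran with gene length over the whole table, and the members followed it in part. The gene models recovered from the RPKM steps were 1554 bases for Prkra and 1736 for Tarbp2, and 7635 for Eif2c3, 8031 for Eif2c2 and 9851 for Dicer1. Xpo5, at 3709 bases, sorted with the longer Argonaute genes although it is shorter than Dgcr8 (4225) and Drosha (4571), which sorted with Tarbp2 and Prkra. Tested genes of at most 2000 bases had a median deviation from the group mean of −0.15 in cKO replicate 2 and −0.13 in control replicate 2, and of 0.16 in cKO replicate 4 and 0.14 in control replicate 3. Genes of at least 6000 bases had medians of 0.057, 0.040, −0.032 and −0.071 in those libraries. When each library's linear trend with log2 gene length was removed, an alternative chosen after seeing the data, the residual SD of Tarbp2 went from 0.22 to 0.15, that of Eif2c2 from 0.22 to 0.18 and that of Eif2c3 from 0.19 to 0.15, while Dicer1 stayed near 0.07 and Xpo5 went from 0.16 to 0.18. The log2 fold changes of Dicer1 and Eif2c3 were then −0.14 and −0.30, and 0 of the 10 genes passed. The source of the trend was not tested.

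**Figure D4:**
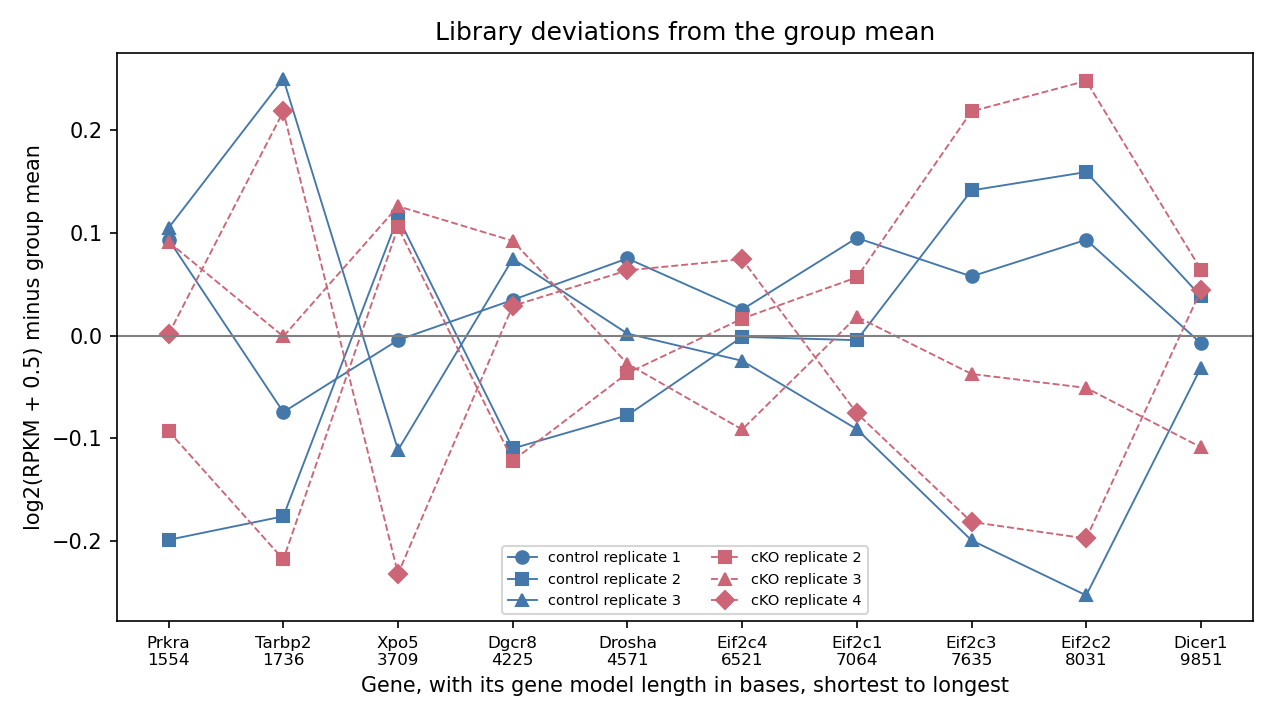
Deviation of each library from its group mean, in log2(RPKM + 0.5), for the 10 genes ordered from the shortest to the longest gene model. Replicate 2 of each group (squares) lies low for Prkra and Tarbp2 and high for Eif2c3 and Eif2c2, and cKO replicate 4 (diamonds) and control replicate 3 (blue triangles) lie the other way for Tarbp2, Eif2c3 and Eif2c2.

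The other genes of the pathway were taken from 5 lists of microprocessor partners, export factors, precursor-modifying and decay factors, partners in Argonaute loading, and other RNase III and PIWI genes. Of 72 such genes in the table, 61 were tested, and 0 passed the adjusted threshold in either direction by limma or by voom. Of the 61, 37 had a log2 fold change below 0 and 24 above, with a median of −0.0099. At an unadjusted limma p under 0.05 there was 1 lower and 1 higher gene of the 61, both in the Argonaute loading list, beside 3.06% and 2.65% of all genes. The cKO values lay wholly below the control values for 4 of the 61 and wholly above for 3, beside 5.78% and 5.91% of all genes. Gemin4, a component of the SMN complex that also occurs with Argonautes, was at 4.54, 5.08 and 4.63 RPKM in controls and 3.56, 4.13 and 3.74 RPKM in cKO, with separate groups (log2 fold change −0.29, limma adjusted p = 0.848). Snd1, a nuclease found in silencing complexes, was at 13.04, 14.87 and 14.22 RPKM in controls and 17.0, 18.8 and 15.4 RPKM in cKO, also with separate groups (0.27, limma adjusted p = 0.848).

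Other genes with the smallest p in a direction were Rcc1, the exchange factor that charges Ran with GTP (7.01 and 5.89 RPKM in controls and cKO), the RNA-binding protein gene Hnrnpa1 (5.47 and 4.44 RPKM) and Dis3l2, which degrades uridylated precursors (7.59 and 8.28 RPKM). The groups were separate for Rcc1 and overlapped for Hnrnpa1 and Dis3l2. Their limma adjusted p lay between 0.883 and 0.964. Hnrnpa1 has many near-identical pseudogenes, so its level is uncertain. The most abundant genes of the lists also overlapped between groups in 4 of 5 cases: the helicase gene Ddx5 at 131 and 138 RPKM, the RNA editing gene Adarb1 at 49.4 and 47.9 RPKM, the chaperone gene Hsp90ab1 at 210.8 and 196.3 RPKM and the mitochondrial ribosomal RNase III family gene Mrpl44 at 15.9 and 16.5 RPKM. Rangap1, the Ran GTPase activator, was at 46.8 and 50.8 RPKM with separate groups (limma adjusted p = 0.970). The PIWI genes Piwil1, Piwil2 and Piwil4 did not exceed 0.949 RPKM in any library. Lin28a and Lin28b, which block let-7 processing, were at 0.569 to 1.21 and 0.0906 to 0.134 RPKM.

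Among all tested genes, those whose 6 values tracked Dicer1 most closely were Qser1 (Pearson r = 0.984), Fyco1 (0.980) and Rps6ka5 (0.975), computed on log2(RPKM + 0.5) over 6 libraries and picked as the highest of all. Qser1 was at 2.76, 2.81 and 2.56 RPKM in controls and 2.39, 2.03 and 2.36 RPKM in cKO. Like Dicer1, it was lowest in cKO replicate 3 and highest in control replicate 2. Within the machinery the r to Dicer1 ranged from 0.726 for Eif2c3 and 0.715 for Eif2c4 down to −0.388 for Prkra. These values were computed over both groups together, so a difference between groups enters them. The libraries' length trend was not removed before they were computed, and its part in them was not tested.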

How the data were processed

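The authors deposited 1 table of RPKM per gene and library; the submitters' processing notes name GSNAP, HTSeq and mm9. Which annotation and length model were used is not given in the sources used here. Per the labels' protocols, random primers were used on the poly(A) RNA, and no step marks the strand. Whether pools came from separate litters is not stated, so p-values measure the spread between these libraries.

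The 12599 genes whose mean reached 1 RPKM were tested with limma 3.58.1 (R 4.3.3) on log2(RPKM + 0.5), with a variance trend, two-sided, Benjamini-Hochberg adjusted at 0.05. This scale understates changes of low genes. Whole reads were worked back from the RPKM steps, scaled by the lengths of 479 microRNA hairpins, for 19138 of 19140 genes above 0; a gene's length was the shortest that made its values whole in every library and returned the deposited RPKM within 1e-05, and the step was tested on simulated data. Positions and UTRs of the members were read from GENCODE M21 (GRCm38), which differs from the authors' build; 3′ UTRs were found for 95.8% of tested genes. Older Eif2c symbols were matched to Ago1 to Ago4 through RefSeq synonyms. Single values were compared by exact two-sided permutation.

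The members and lists were chosen with earlier results of these data known. Named beside the 10 members are, in the 5 pathway lists, the 3 genes of smallest p in each direction and the most abundant of each list, and the 3 genes most like Dicer1; 1 gene that this rule names is not reported here. Henmt1 was not found in the table. The chi-square per degree of freedom between libraries of a group was 9.65 to 30.3, so no pair agreed within sampling noise.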

Additional observations from a re-analysis of the deposited data

How the results depend on the processing

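Of the 10 members, 0 passed in any of the settings tried, which were pseudocounts of 0.1 and 1, no filter, a mean of at least 5 RPKM (which drops Eif2c3 and Eif2c4), median-of-ratios scaling, voom on whole reads, leaving out each library, the replicate block and, added after seeing the data, removal of the length trend. Dicer1 stayed below 0 in all of them (−0.18 to −0.092), as did Drosha and Eif2c3, and Xpo5 (0.035 to 0.21) and Eif2c1 stayed above 0. Directions of genes near 0 turned when single libraries were left out: Dgcr8 ran from −0.078 to 0.038, Tarbp2 from −0.18 to 0.059, Prkra from −0.11 to 0.040, Eif2c2 from −0.095 to 0.13 and Eif2c4 from −0.066 to 0.017. For Dgcr8, Tarbp2, Prkra and Eif2c2 the libraries concerned were cKO replicate 2 and control replicate 3, for Prkra also control replicate 1, and for Eif2c4 cKO replicate 3. The cause was not tested. Genes with separate groups among the 10 went from 1 to 0 under median-of-ratios scaling and stayed at 1, Dicer1, with the length trend removed.

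The groups share the numbers 2 and 3, and nothing in the labels says that a number marks a shared batch. With the number as a replicate block on those 4 libraries, all genes called went from 1 to 192 with 1 residual degree of freedom, 0 of the 10 members passed, and Prkra came to 0.033, the same as for these libraries without pairing. The difference between numbers 2 and 3 correlated across genes between the groups (r = 0.475). Over all genes, 3 were called with no filter, 2 at a mean of at least 5 RPKM, 3 under median-of-ratios scaling, 3 by voom and 3 with the length trend removed. None of the 72 alternative values of the Argonaute shares and ratios moved by more than the pooled SD of both groups, but the differences near 0 turned sign without single libraries: the Eif2c2 share (0.73 to −0.80 without cKO replicate 2), the Eif2c4 share (−0.34 to 0.34 without control replicate 3), Drosha/Dgcr8 (−0.015 to 0.049 without cKO replicate 3) and Dicer1/Tarbp2, which was 0.041 within numbers 2 and 3.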
